A study of Rattus norvegicus with 11 samples.

Results

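Atp1b1, the beta subunit of the sodium pump, and Fxyd1, the small membrane protein phospholemman, were taken from a table of 17257 genes by their symbols, and both of the 2 were present. They are described here beside other beta subunits, the FXYD proteins and genes of acid-base transport. Total RNA was sequenced from ventricular myocytes, the contractile cells of the heart, of wild-type Sprague Dawley rats aged 3 to 4 months. The groups were 5 libraries from females and 6 libraries from males. The myocytes of both sexes came from hearts perfused on a Langendorff apparatus and were frozen, untreated, after 45 minutes on dishes. The comparison asks whether RNA levels of these genes differ between females and males. The labels name no animal, so p-values measure the spread between libraries labelled as biological replicates.

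The sodium pump moves sodium out of the cell and potassium in, and so sets the sodium gradient that drives calcium extrusion and pH control in the myocyte. Its alpha subunit carries out the transport, and its beta subunit is needed for the alpha subunit to fold and reach the membrane. Phospholemman binds the pump and restrains it, and its phosphorylation by protein kinase A or protein kinase C relieves the restraint. Sodium-proton exchangers bring sodium into the cell in exchange for protons, and the pump removes it again.

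The start region of Fxyd1 is shown because it is the listed member that passed the threshold. The sequence is from RefSeq, build GRCr8, chr1:95418531-95418830, minus strand, and runs from 250 bases before to 50 bases after the gene start.
Fxyd1: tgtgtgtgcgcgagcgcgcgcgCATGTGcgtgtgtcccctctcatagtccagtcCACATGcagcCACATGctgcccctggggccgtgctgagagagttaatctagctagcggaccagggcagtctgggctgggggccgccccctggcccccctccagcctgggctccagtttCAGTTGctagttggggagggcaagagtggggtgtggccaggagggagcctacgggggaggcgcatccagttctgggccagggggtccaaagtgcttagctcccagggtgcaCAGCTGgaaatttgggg
The capitals mark the 5 matches to the E-box letters CANNTG, read on both strands, and 72.1% of 33469 start regions of this length hold at least 1 match. The GC box GGGCGG, searched on both strands, matched 1 time, in a stretch with no E-box, and 33.1% of the start regions hold it. The palindromic estrogen and glucocorticoid response elements, each its own reverse complement, had 0 matches in this window, and 0.00896% and 0.0149% of the start regions hold them.

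Values for most genes are the authors' means of normalized counts over the libraries of a sex, with no value per library. The digits of the means gave size factors of 0.972 to 1.14 for the female and 0.811 to 1.17 for the male libraries. Reads per library were recovered for 4497 genes of low mean, which held 59648 to 66271 reads in the female libraries and 50186 to 71886 in the male libraries. In these genes female library e stood apart, with a loading of 0.81 on a first component that held 20.9% of the variance, against at most 0.24 in size for the other libraries. The male libraries loaded from -0.24 to -0.16 and female libraries a to d from -0.035 to 0.24, so the component also ran largely along sex. These genes had a mean up to 65 in males but up to 100 in females, so genes higher in females entered more readily. How far these unequal limits shaped the component was not tested. The results for Fxyd1 and Atp1b1 could not be recomputed without female library e. A gene was called where the authors' deposited table gave it an adjusted p under 0.05. This held for 14.5% of the 13346 genes with a mean above 0, of which 6.71% were higher and 7.76% lower in females as shares of all. At thresholds of 0.01 and 0.10 the shares called were 5.69% and 20.5%, and 20.2% were called among genes with a mean of at least 10 alone.

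Fxyd1 was higher in females. Its mean was 14081 normalized counts in females and 10212 in males, which is 1.38-fold in the authors' deposited table. The log2 fold change (female over male) was 0.46, and the authors' deposited table gave it 0.0066 as the DESeq adjusted p. The error of this change implied by the authors' deposited p-value under a normal approximation was 0.13, which gives an interval from 0.21 to 0.71 at 95%. A gene's fold change in bulk RNA cannot tell fewer cells of a type from less RNA per cell.

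Atp1b1 was not called. Its mean was 8445 normalized counts in females and 9948 in males. The authors' deposited table gave -0.24 as log2 fold change and 0.22 as adjusted p, for which the implied interval ran from -0.49 to 0.017. The interval holds both a lower level in females and no difference. The mean of Fxyd1 was 1.67 times that of Atp1b1 in females and 1.03 times in males. This ratio was 1.62 times the male value in females, on counts that were not divided by transcript length. A test of the ratio needs values per library, which the group means do not give.

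Genes of like abundance give the background for the pair. Of 142 other genes whose mean lay within 1.2-fold of that of Fxyd1, 26.1% were called, 21 higher and 16 lower in females. Of 176 such genes for Atp1b1, 27.8% were called, 25 higher and 24 lower. Ranked by log2 fold change among 9116 genes whose mean was 50 or more, Fxyd1 lay at percentile 88.4 and Atp1b1 at percentile 30.3. The genes of like mean with the nearest log2 fold change, over the 2 group means alone, were Rbm20, Ak1 and Jun for Fxyd1. For Atp1b1 they were Slc38a2, Rassf3 and Uqcrb. In the authors' deposited table Rbm20 and Jun were called and the other 4 were not.

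**Figure D1:**
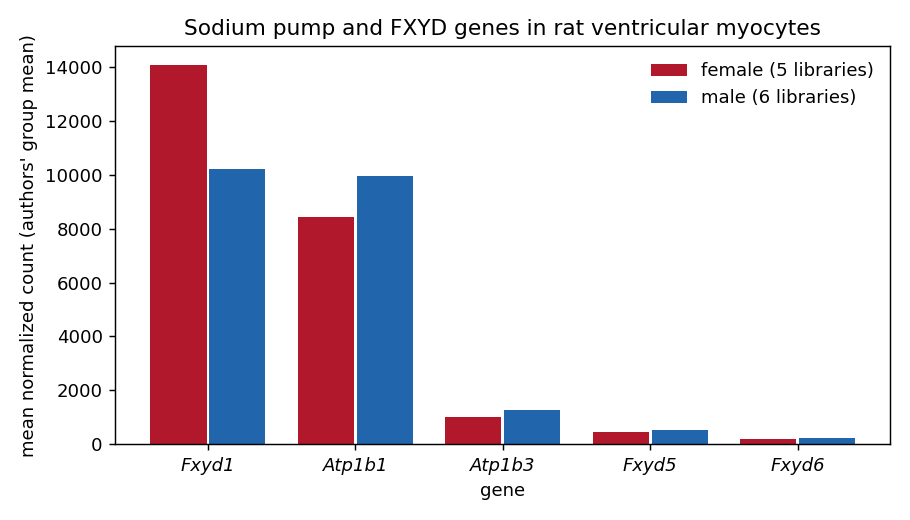
Bars give the authors' group means of normalized counts (y axis, linear from 0) for 5 pump and FXYD genes, females in red and males in blue. Fxyd1 stands at 14081 in females and 10212 in males, Atp1b1 at 8445 in females and 9948 in males, and Atp1b3, Fxyd5 and Fxyd6 lie lower. The group means carry no error bars because the table gives no value per library.

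The other beta subunits were scarcer in counts. Atp1b3, a widely expressed beta isoform, had a mean of 994 in females and 1260 in males. The authors' deposited table gave it a log2 fold change of -0.34 and 0.085 as adjusted p. Atp1b1 held 88.7% of the counts of the 4 beta genes in females and 88.3% in males, so this share was nearly equal in the sexes. The beta genes summed to 9520 in females and 11265 in males. Fxyd1 was 1.48 times that sum in females and 0.907 times in males, again without a test. Atp1b4, a beta-like gene of muscle, was listed at 0 in females and had 10 reads in 2 of the 6 male libraries.

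**Figure D2:**
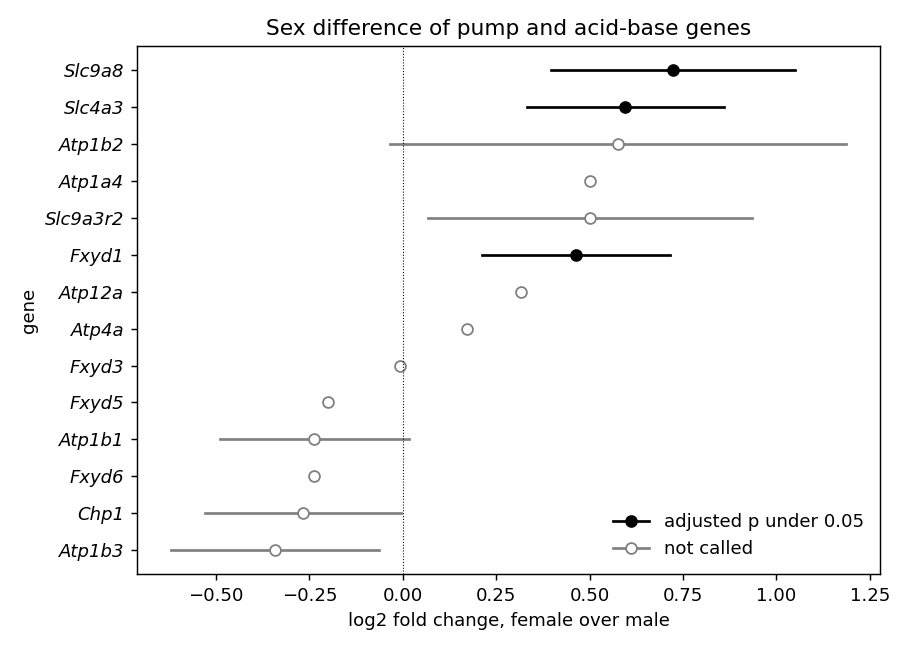
Points give the log2 fold change, female over male, of 14 genes in the authors' deposited table, filled where the adjusted p was under 0.05. Lines give the 95% interval implied by the p-value, drawn only for a p under 0.2. Slc9a8, Slc4a3 and Fxyd1 are filled and lie right of 0, and Atp1b1 lies left of 0 with an interval that reaches it.

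Reads per library could be recovered for the scarce pump genes, up to a mean of 65 in males and 100 in females. Because of these unequal limits, Atp1b2 and Atp4a would not have been recovered had their means been exchanged between the sexes. Their permutation p-values below take no account of this, so they are descriptive only. Atp1b2, the beta isoform known from glia and neurons, had 77.5, 62.5, 109, 92.6 and 65.9 normalized reads in female libraries a to e. In male libraries a to f it had 52.8, 27.2, 46.7, 58.9, 58.6 and 83.8. The female libraries were mostly above the male ones, and the groups overlapped because male library f lay above 3 of the 5 female libraries. The means were 81.5 ± 19.4 in females (SD, n = 5) and 54.7 ± 18.5 in males (SD, n = 6), with an exact permutation p = 0.043 (two-sided). Over all recovered genes tested, the adjusted p from limma was 0.47, and the authors' deposited adjusted p was 0.22, so Atp1b2 was not called.

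Atp1a4, an alpha isoform known from sperm, had 24.9 ± 9.39 normalized reads in females (SD, n = 5) and 17.6 ± 10.8 in males (SD, n = 6), with an exact permutation p = 0.27 (two-sided). Atp12a, the non-gastric proton pump, had 51.8 ± 19.0 in females (SD, n = 5) and 41.6 ± 24.2 in males (SD, n = 6), with an exact permutation p = 0.45 (two-sided). Atp4a, the gastric proton pump, had 70.9 ± 58.3 in females (SD, n = 5) and 62.9 ± 35.7 in males (SD, n = 6), with an exact permutation p = 0.79 (two-sided). The highest value of Atp4a was 163 in female library c, above every male library, and the lowest was 17.3 in male library f. In each of these genes the sexes overlapped. Limma called 0 of the 1671 recovered genes with a mean of at least 10, which is 0% of them, with 238 at an unadjusted p under 0.05. The authors' deposited table called 53 of the same genes, or 3.17%.

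**Figure D3:**
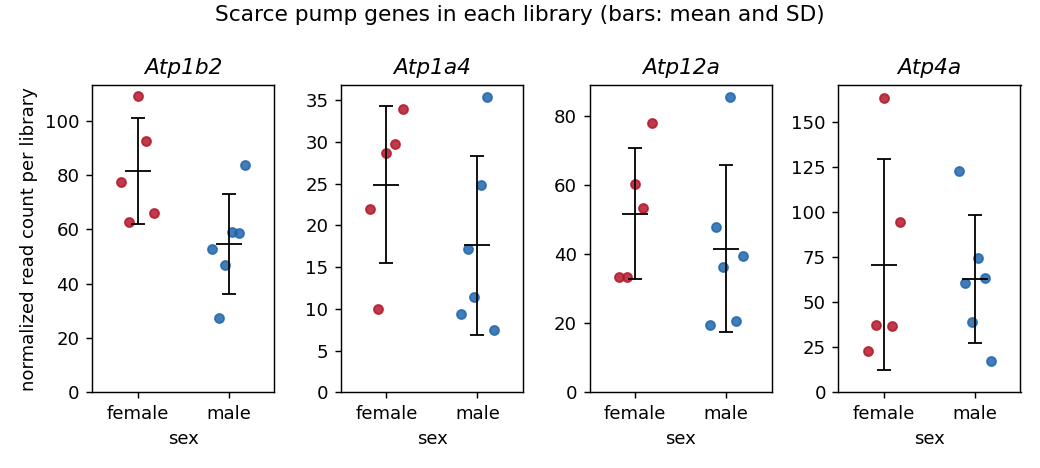
Points give the normalized reads of 4 scarce pump genes in each library (y axes, linear, a scale per gene), females in red at the left and males in blue at the right, with black bars for the mean and SD. Atp4a has 1 female library at 163, and Atp1b2 has a mean of 81.5 in females and 54.7 in males with overlapping points.

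Of the 7 FXYD genes, Fxyd1 held 94.9% of the counts in females and 92.2% in males. Fxyd5, a regulator of the pump in epithelia, had a mean of 455 in females and 522 in males. Fxyd6, known from brain, had a mean of 199 in females and 235 in males, and Fxyd3 99.3 in females and 99.9 in males. Their adjusted p-values were 0.65, 0.77 and 0.99 in the authors' deposited table. Fxyd2, the kidney pump regulator known as the gamma subunit, had 15 reads over the female libraries and 16 over the male libraries. Fxyd7 had 20 reads in females and 39 in males. Fxyd4 and Atp4b, the gastric pump's beta subunit, were listed at 0. Of the 15 pump and FXYD genes reported here, 13 had a mean above 0, of which Fxyd1 alone rose, none fell and 12 were not called. Their median log2 fold change was 0.082 over 12 genes with a finite fold, against -0.0099 over 12315 such genes in the table. The share called, which rests on 1 gene, was 7.69%, against 14.5% of all genes. At a threshold of 0.01 it was again 7.69%, but against 5.69% of all genes. Among genes with a mean of at least 10 it was 10% of 10, against 20.2% of all.

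Of the acid-base genes, Slc9a8 and Slc4a3 rose in females. Slc9a8, an exchanger of the Golgi membrane, rose by 0.72 on the log2 scale, with means of 798 in females and 483 in males. The authors' deposited table put its adjusted p at 0.0011. Slc4a3, a chloride-bicarbonate exchanger that loads the myocyte with acid, had means of 8835 in females and 5848 in males. It rose by 0.60 on the log2 scale, with 0.00087 as adjusted p in the authors' deposited table. The sodium-bicarbonate cotransporters Slc4a4 and Slc4a7 stood at -0.38 and -0.34 on the log2 scale. Neither was called, with 0.087 and 0.16 as DESeq adjusted p there. Chp1, a calcium-binding partner of sodium-proton exchangers, stood at -0.27 on the log2 scale, with 0.18 as adjusted p in the authors' deposited table. The lactate and proton carrier Slc16a1, of which the list's counts were highest, had means of 15847 in females and 16839 in males. Slc9a3r2, a scaffold protein of such exchangers, had means of 1508 in females and 1066 in males, with 0.11 as adjusted p in the authors' deposited table. Of 26 acid-base genes reported here with a mean above 0, 2 rose and none fell, or 7.69% against 14.5% of all genes. Their median log2 fold change was 0.085 over 25 genes, 14 of them higher and 11 lower in females. At a threshold of 0.01 the share called was again 7.69%, but against 5.69% of all genes. Among genes with a mean of at least 10 it was 10.5% of 19, against 20.2% of all.

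A further list held sodium channels, the sodium-calcium exchangers and other carriers of ions and solutes, including potassium-chloride cotransporters that use no sodium. Of 23 such genes reported here 3 rose and 1 fell, which is 17.4% against 14.5% of all genes, with a median log2 fold change of -0.037 over 21 genes. Among genes with a mean of at least 10 it was 22.2% of 18, against 20.2% of all, so the share lay near that of all genes in both counts. Scn4b, an auxiliary subunit of voltage-gated sodium channels, had means of 4760 in females and 3518 in males and rose, in the authors' deposited table, by 0.44 on the log2 scale. The other 2 that rose were the potassium-chloride cotransporters Slc12a7 and Slc12a4, by 0.54 and 0.46 there. Slc12a2, which carries sodium, potassium and chloride into the cell, fell by 0.63 in the authors' deposited table. The sodium-calcium exchanger Slc8a1, which spends the gradient that the pump builds, had means of 37844 in females and 38554 in males. The authors' deposited table put its adjusted p at 0.96.

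Of 17 other P-type pumps with a mean above 0, 1 rose and 3 fell, which is 23.5% against 14.5% of all genes, with a median log2 fold change of -0.30 over 16 genes. Among genes with a mean of at least 10 it was 26.7% of 15, against 20.2% of all. At a threshold of 0.01, 0 were lower and 1 was higher, which is 5.88% of the 17 against 5.69% of all genes. In the authors' deposited table Atp13a1 rose by 0.63 on the log2 scale. The plasma membrane calcium pump Atp2b2 fell by 0.82, Atp2c1, a calcium and manganese pump of the Golgi, fell by 0.56 and Atp13a3 fell by 0.77 there. Atp2a2, the calcium pump of the sarcoplasmic reticulum, had means of 420257 in females and 334966 in males, with 0.092 as adjusted p in the authors' deposited table.

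Genes around the control of phospholemman were called in both directions at the threshold of 0.05. Of 30 genes for kinases, phosphatases, receptors of adrenergic and steroid signals and related proteins, 4 rose and 7 fell, which is 36.7% against 14.5% of all genes, with a median log2 fold change of -0.052. Among genes with a mean of at least 10 it was 42.9% of 28, against 20.2% of all. At a threshold of 0.01 only 1 of the 30 was called, lower in females, which is 3.33% against 5.69% of all genes, so the share above that of all genes was not found there. Prkca, a protein kinase C that phosphorylates phospholemman, had means of 762 in females and 1112 in males and fell, in the authors' deposited table, by 0.54 on the log2 scale. The list's other protein kinase C genes, Prkcb, Prkcd and Prkce, were not called. The regulatory subunits of protein kinase A, Prkar1a and Prkar2a, fell by 0.42 and 0.49 in the authors' deposited table. Prkaca, its main catalytic subunit in heart, had means of 13312 in females and 12555 in males with 0.81 as adjusted p in the authors' deposited table. Prkacb, the list's other catalytic subunit, stood at -0.42 on the log2 scale and was not called, with 0.058 as DESeq adjusted p there.

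The catalytic subunits of protein phosphatase 1, which acts on phospholemman, went different ways. In the authors' deposited table Ppp1ca rose by 0.41 on the log2 scale, and Ppp1cb and Ppp1cc fell by 0.71 and 0.38. Ppp1r1a, an inhibitor of that phosphatase, had 0.84 as adjusted p there. Ppp2r1a, the scaffold of protein phosphatase 2A, rose by 0.39 in the authors' deposited table. The catalytic subunits of phosphatase 2A, Ppp2ca and Ppp2cb, stood at -0.34 and -0.25 on the log2 scale. Neither was called, with 0.068 and 0.27 as DESeq adjusted p in the authors' deposited table. Adrb1, the main beta-adrenergic receptor of the myocyte, had means of 196 in females and 117 in males and rose by 0.75 in the authors' deposited table. Zdhhc20, a palmitoyltransferase, and Nr3c1, the glucocorticoid receptor, fell by 0.83 and 0.74 there. Zdhhc5, the list's other palmitoyltransferase, had means of 1784 in females and 1660 in males and was not called. Nos3 rose by 0.56 in the authors' deposited table. Pln, the calcium pump inhibitor phospholamban and the list's gene with the most counts, stood at -0.20 on the log2 scale, with 0.38 as adjusted p in the authors' deposited table.

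Markers of the cell types are given beside these genes. Their calls stand against 14.5% of all genes called, and 20.2% of genes with a mean of at least 10. The 11 ventricular myocyte markers in the table summed to 5045602 in females and 4293641 in males, which is 1.18 times as much, and none was at 0. Among them Myh6 and Ryr2 were called, both higher in females. Fibroblast markers summed to 8924 in females and 17967 in males, with 2 of 7, Col1a1 and Col3a1, called lower and Col1a2 listed at 0. Much of that difference lay in Col3a1, with means of 3915 in females and 10722 in males. Pdgfra, Dcn and Lum were lower in females but not called, and Tcf21, at 0.17 on the log2 scale, was not called either. Mesothelial markers summed to 694 in females and 535 in males, with 2 of 4, Msln and Krt19, called higher. Krt8 was not called, and neither was Wt1, whose mean was lower in females (290 against 356 in males). Endothelial markers summed to 16903 in females and 16001 in males, with 2 of 7, Vwf and Egfl7, called higher. Pecam1, Cdh5, Kdr, Tek and Tie1 were not called and lay between -0.038 and 0.13 on the log2 scale. No marker of smooth muscle and pericytes, leukocytes, Schwann cells and neurons, or atrial myocytes was called. The summed levels were 1.04, 0.82, 1.26 and 2.05 times as high in females for those 4 lists in that order. The atrial sum rested on Myl7, with means of 2548 in females and 287 in males and 0.43 as adjusted p in the authors' deposited table. Without Myl7 the atrial markers summed to 1600.3 in females and 1733 in males, or 0.923 times as much. The part of these markers in the results for the pump genes was not tested.

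The scale chosen moved the size of both changes, and their signs stayed the same in the 5 scalings tried. The rescaled ratios carry no p-value or interval, and whether Fxyd1 would keep its call under them was not tested. Against the summed myocyte markers, the log2 ratio of females to males was 0.23 for Fxyd1 and -0.47 for Atp1b1. Myh6, itself called, had means of 1330868 in females and 831771 in males, and without it the marker sum was 1.07 times as high in females. Against that smaller sum, a choice made after the data were seen, the ratio was 0.36 for Fxyd1 and -0.34 for Atp1b1. Scaled by the sum over all rows, it was 0.61 for Fxyd1 and -0.087 for Atp1b1. In that sum 37 rows with an Ensembl identifier alone held 50.7% of the counts in females and 57.5% in males.

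**Figure D4:**
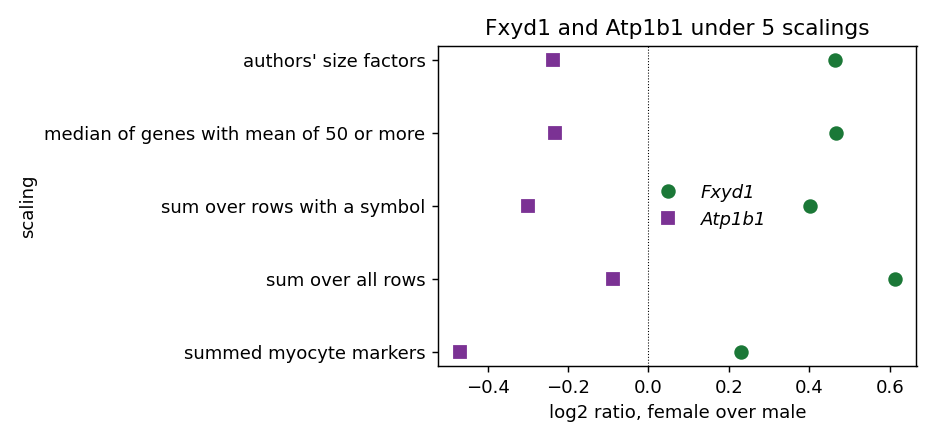
Points give the log2 ratio, female over male, of Fxyd1 (circles) and Atp1b1 (squares) under the authors' size factors and 4 other scalings. Fxyd1 lies between 0.23 and 0.61, right of 0, and Atp1b1 between -0.47 and -0.087, left of 0.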

How the data were processed

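The authors deposited 1 table for 5 female and 6 male libraries. Per the file headers, it gives the authors' mean normalized signal (counts over size factors) per group, a deposited fold change as a ratio, its log2 value, and deposited p-values with their adjusted values. The submitters' processing notes name build rn6, Trimmomatic 0.32, HTSeq 0.6.1, TopHat2 2.0.12, DESeq and FastQC. Annotation and strand setting are not given in the sources used here. Its columns are lettered A and B. Weights of 6 for A and 5 for B gave the mean over all 11 libraries in 13346 of 13346 genes above 0 (relative tolerance 1e-09), and exchanged weights in 0. A was read as males and B as females.

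Group means were searched for whole reads over size factors. Exactly 1 solution was found for 4038 of 4038 genes with a male mean up to 65 and for 4486 of 4487 with a female mean up to 100. Values shifted by about 1e-09 had a solution in 0.732% and 0.0376% of cases. Libraries are lettered within a sex by falling size factor and carry no replicate number. Limma 3.58.1 in R 4.3.3 was run on log2 of normalized reads plus 1, for 1671 genes with a mean of at least 10. On simulated data with those 1671 genes it called 48.5% of genes changed 2-fold and 0.5% of those changed 1.5-fold. The dispersion of the simulated reads was a fixed setting, not estimated from these libraries, so those shares hold for that setting only. Exact permutation tests used scipy 1.17.1.

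Members and 5 lists were chosen with earlier results of these data known, and 123 list genes are covered, since some listed items are not reported here. The text names both members, the remaining pump list genes with a mean above 0, up to 5 called genes per direction and the highest mean of each other list. Others (Chp1, Slc9a3r2, Slc4a4, Slc4a7, Prkaca, Prkacb, Ppp1r1a, Prkar2a, Ppp1cc, Ppp2ca, Ppp2cb, Zdhhc5, Prkcb, Prkcd and Prkce) were named after their values were seen. Scalings, thresholds, filters, pseudocounts and left-out libraries were tried as alternatives.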

Additional observations from a re-analysis of the deposited data

How the results depend on the processing

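No paired analysis was possible because the table gives group means, and recovered libraries carry no replicate number. Fxyd1 kept its call when p-values were adjusted over genes with a mean of at least 10 (adjusted p of 0.0052), and lost it under a Bonferroni adjustment, where its log2 fold change of 0.46 had a p of 1. A scaling takes the log2 ratio of its sums, female over male, off the log2 fold change of every gene. Scaled by the sum over all rows, where that ratio was -0.15, Fxyd1 had 0.61 and Atp1b1 -0.087. Scaled by the myocyte markers, where the ratio taken off was 0.23, Fxyd1 and Atp1b1 had 0.23 and -0.47. Without Myh6, an alternative chosen after seeing the data, the ratio taken off was 0.10. At a threshold of 0.01, 5.69% of all genes were called. The sodium list then had 1 gene higher and 1 lower of 23 (8.70%). The P-type list had 1 higher and 0 lower of 17 (5.88%), and the regulator list 0 higher and 1 lower of 30 (3.33%). At a threshold of 0.10, 20.5% of all genes were called. The pump list then had 1 higher and 1 lower of 13, and the acid-base list 2 higher and 1 lower of 26. The P-type list had 3 higher and 4 lower of 17. Limma called 2 recovered genes with no filter on low means, and from 0 to 7 with 1 library left out, the most without female library d. The log2 difference of Atp4a, 0.027 over all libraries, ranged from -0.36 to 0.33 with 1 library left out and was negative without female library c or e or male library c or f (-0.36, -0.17, -0.064 and -0.29). Shares per coding length were not run, for want of lengths. Reads of Fxyd1 and Atp1b1 per library are not known, so no library could be left out for them.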
